A study of Mus musculus with 6 samples.

Results

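The astrocyte genes were a set of 10 genes in common use as markers of astrocytes, namely *Slc1a2*, *Slc1a3*, *Glul*, *Gja1*, *Gjb6*, *Aqp4*, *S100b*, *Gfap*, *Aldh1l1* and *Sox9*. They were looked up by symbol in tables of reads counted on 25239 genes, and all 10 were found there. RNA came from the hippocampus of male mice aged 6 to 8 weeks on the C57BL/6 background, with 1 library per mouse. The 3 wild-type (WT, Ube3am+/p+) mice carried both parental copies of *Ube3a*, and the 3 Ube3am-/p+ mice, a model of Angelman syndrome, lacked the maternal copy and kept the paternal copy. The mice received no treatment named in the labels, and females were not included. The loss was inherited, so that every cell type of the Ube3am-/p+ mice carried it, and the kind of deletion is not given in the sources used here. The p-values below measure the spread between these mice.

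Astrocytes are the glial cells that take up glutamate at synapses, convert it to glutamine for neurons, buffer potassium and water at the vessels, and form a network coupled by gap junctions. GFAP, the intermediate filament of these cells, is the usual label of reactive astrocytes, and its level in hippocampus is high also at rest. In mature neurons the paternal copy of *Ube3a* is silenced, whereas astrocytes are known to express the gene from both copies.

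Each WT library held 7293272 to 8675252 reads on genes and each Ube3am-/p+ library 8871052 to 11314409. Levels are given as CPM, the counts of a gene scaled to 1000000 reads on genes in each library. The targeted gene *Ube3a* had 104, 141 and 151 CPM in WT mice 1, 2 and 3 and 96.8, 82.9 and 80.6 CPM in Ube3am-/p+ mice 1, 2 and 3, so that each library labelled Ube3am-/p+ lay below each WT library (log2 fold change -0.58, standard error 0.12, adjusted p = 0.0363, edgeR). That call was lost without WT mouse 2 (adjusted p = 0.232, edgeR), WT mouse 3 (0.198), Ube3am-/p+ mouse 2 (0.251) or Ube3am-/p+ mouse 3 (0.142). With GC content and transcript length corrected for, the value was -0.19 and the call was lost as well (adjusted p = 0.255, edgeR). The libraries also differed in how expression followed the GC content of transcripts. How far each gene lay from its average over the 6 libraries was set against its GC content over 14201 tested genes, and Spearman's rho was near 0 in both mice numbered 1 (WT 0.0461, Ube3am-/p+ 0.0593). It was -0.51 and -0.576 in the other WT mice and 0.53 and 0.532 in the other Ube3am-/p+ mice. Genes are not independent replicates, and these values are a description of the libraries.

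All 10 astrocyte genes were well covered, with 330 to 29830 counts per gene and library. Together they held 0.606%, 0.651% and 0.648% of the gene counts of WT mice 1, 2 and 3 and 0.553%, 0.540% and 0.536% of those of Ube3am-/p+ mice 1, 2 and 3. *Slc1a2* alone made up 0.306% to 0.344% in WT mice and 0.249% to 0.277% in Ube3am-/p+ mice. Per kilobase of annotated exon, the order of levels in WT mice began with *Glul* at 404 ± 12.6 CPM per kb (SD, n = 3), *Slc1a2* at 251 ± 15.6, *Gfap* at 97.3 ± 3.64, *Slc1a3* at 76.5 ± 5.82 and *S100b* at 60.7 ± 1.91. *Aqp4* (26.4 ± 1.98) and *Gja1* (25.3 ± 1.27) came next and did not differ beyond their spread. *Gjb6* followed at 19.0 ± 2.82, and *Aldh1l1* (10.6 ± 0.359) and *Sox9* (10.1 ± 0.924) were lowest and did not differ beyond their spread. Exon length was the union over all annotated transcripts. With the longest transcript instead, *Gja1* (66.6 CPM per kb) came before *S100b* (60.7), and *Slc1a3* (147) came close to *Gfap* (155).

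To ask whether astrocyte expression differs when maternal *Ube3a* is missing, each gene was compared between the genotypes in 1 fit over the 14445 genes that passed the filter on low counts, which all 10 astrocyte genes passed. The glutamate transporter *Slc1a2*, the connexins *Gja1* and *Gjb6*, the water channel *Aqp4* and the calcium-binding protein *S100b* had lower values in each Ube3am-/p+ mouse than in any WT mouse, by 15.9% to 21.3% in the mean. *Slc1a3*, *Glul*, *Gfap*, *Aldh1l1* and *Sox9* overlapped between the genotypes, with mean differences of -9.47% to 7.07%. A gene was called when its fold change exceeded 1.2 with an adjusted p under 0.05. By this rule edgeR called 0 of the 10 and 290 of all tested genes (2.01%), and DESeq2 called 1 of the 10, *Slc1a2*, and 4.83% of all genes in its fit. The DESeq2 share is taken over 19291 genes with any count, some of them too low to get an adjusted p, so the 2 shares are not on the same base. Without WT mouse 1 edgeR called 4 of the 10 (*Slc1a2*, *Aqp4*, *Gja1* and *Gjb6*) and 17.6% of all tested genes. Without Ube3am-/p+ mouse 1 it called 2 of the 10 (*Slc1a2* and *Aqp4*) and 12.5% of all tested genes. At an unadjusted p below 0.05 the same 5 genes stood out in edgeR and in DESeq2, all with lower means in Ube3am-/p+ mice. They made up 50% of the set, while 12.4% of all tested genes had an unadjusted p below 0.05 with a lower mean. Values without overlap and lower in Ube3am-/p+ mice were found in 5 of the 10 astrocyte genes and in 14.2% of all tested genes. Values without overlap and higher were found in 0 of the 10 and in 10.8% of all tested genes. The median log2 fold change was -0.18 over the astrocyte genes and 0.0025 over all tested genes, whose lower quartile was -0.18. In bulk RNA, fewer astrocytes and less RNA per astrocyte cannot be told apart.

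**Figure D1:**
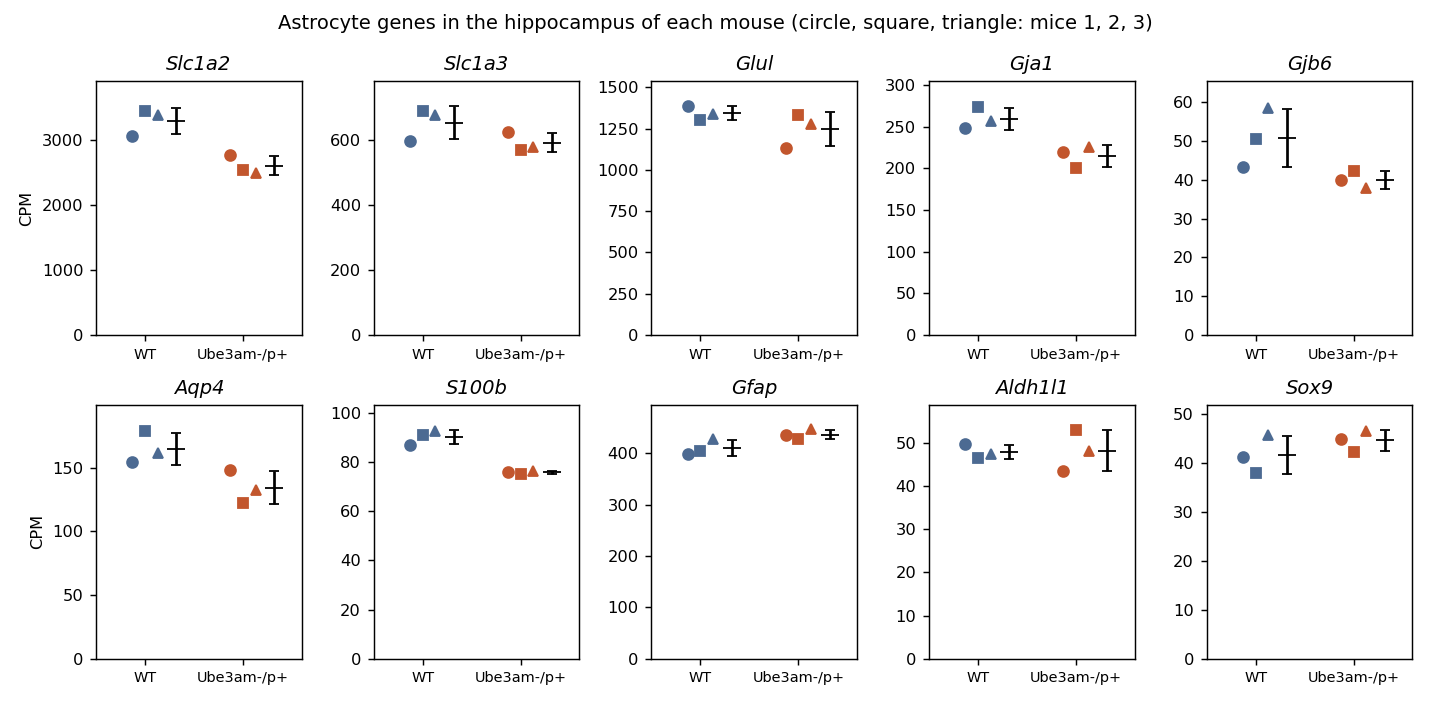
Level of each astrocyte gene in CPM (vertical axes, from 0) in the 3 WT and the 3 Ube3am-/p+ mice, with 1 point per mouse and the mean ± SD beside the points. In *Slc1a2*, *Gja1*, *Gjb6*, *Aqp4* and *S100b* the 3 Ube3am-/p+ mice lie below the 3 WT mice, and in the other 5 genes the genotypes overlap.

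Glutamate handling was represented by *Slc1a2*, *Slc1a3* and *Glul*. *Slc1a2* encodes GLT-1, the main glutamate transporter of the adult forebrain, and spans 102658659 to 102790784 on chromosome 2 (GRCm38, GENCODE M21). It had 3058, 3439 and 3379 CPM in WT mice 1, 2 and 3 and 2767, 2539 and 2494 CPM in Ube3am-/p+ mice 1, 2 and 3. The genotypes did not overlap, and the mouse of each genotype nearest to the other was mouse 1. The means were 3292 ± 205 CPM (SD, n = 3) and 2600.2 ± 146 CPM (SD, n = 3), with a log2 fold change of -0.32 (standard error 0.08, 95% interval from -0.50 to -0.15, adjusted p = 0.0513, edgeR). DESeq2 gave -0.32 with an adjusted p of 0.00526. When GC content and transcript length were corrected for within each library, the value was -0.15 (adjusted p = 0.302, edgeR). *Slc1a3* encodes GLAST, the glutamate transporter that prevails in radial glia and cerebellum, and lies on chromosome 15 from 8634124 to 8710764. It had 596, 688 and 676 CPM in WT mice and 625, 569.98 and 579 CPM in Ube3am-/p+ mice. Its genotypes overlapped, since WT mouse 1 lay below Ube3am-/p+ mouse 1, and the log2 fold change was -0.13 (standard error 0.09, 95% interval from -0.31 to 0.06, adjusted p = 0.376, edgeR). *Glul* encodes glutamine synthetase, the enzyme that turns glutamate into glutamine, and lies on chromosome 1 from 153899944 to 153909723. It had 1385, 1301 and 1339 CPM in WT mice and 1132, 1330 and 1274 CPM in Ube3am-/p+ mice. Ube3am-/p+ mouse 1 was the lowest and mouse 2 lay within the WT range, with a log2 fold change of -0.09 (standard error 0.09, 95% interval from -0.27 to 0.09, adjusted p = 0.553, edgeR). The exons of *Slc1a2* overlap those of the antisense gene *Gm13872* over 189 bp, and those of *Glul* overlap *Teddm2* on the opposite strand over 116 bp. *Gm13872* had 561 counts in the 6 libraries and *Teddm2* 36, against 159957 for *Slc1a2* and 71302 for *Glul*. The strand setting of the counting is not given in the sources used here.

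As the study concerns nuclear receptors of retinoic acid, the promoters were searched for AGGTCA, the core motif such receptors bind. RefSeq promoters on GRCm38.p6, from 250 bases before to 50 after the start site, were at hand for 8 of the 10 genes, and 4 of these held the motif on either strand, as did 16.3% of the 32851 mouse promoters in the table. These 4 promoters are shown 5′ to 3′ on the strand of the gene, with the motif in capitals (TGACCT where it lies on the opposite strand). The RefSeq start sites of *Slc1a2*, *Gfap* and *Aldh1l1* lie inside the GENCODE span of the gene. The promoters lie at chr2:102706188-102706487 (+), chr1:153899679-153899978 (+), chr11:102897151-102897450 (-) and chr6:90550543-90550842 (+).
Slc1a2: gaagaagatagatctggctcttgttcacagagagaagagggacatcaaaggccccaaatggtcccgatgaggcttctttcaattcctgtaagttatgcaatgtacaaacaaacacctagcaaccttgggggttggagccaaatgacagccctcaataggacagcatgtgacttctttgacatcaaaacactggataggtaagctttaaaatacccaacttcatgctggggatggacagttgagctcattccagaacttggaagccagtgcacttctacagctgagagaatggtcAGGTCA
Glul: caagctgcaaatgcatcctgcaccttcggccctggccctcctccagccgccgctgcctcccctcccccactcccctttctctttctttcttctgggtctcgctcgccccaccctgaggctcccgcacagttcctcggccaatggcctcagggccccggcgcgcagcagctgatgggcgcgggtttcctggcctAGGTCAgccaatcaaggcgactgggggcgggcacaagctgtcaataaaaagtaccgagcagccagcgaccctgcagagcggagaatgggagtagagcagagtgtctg
Gfap: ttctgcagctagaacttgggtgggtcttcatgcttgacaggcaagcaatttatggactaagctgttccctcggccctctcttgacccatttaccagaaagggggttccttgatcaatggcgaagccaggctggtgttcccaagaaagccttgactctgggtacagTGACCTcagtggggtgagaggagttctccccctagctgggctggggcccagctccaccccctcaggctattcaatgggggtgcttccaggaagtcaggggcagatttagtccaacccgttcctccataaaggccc
Aldh1l1: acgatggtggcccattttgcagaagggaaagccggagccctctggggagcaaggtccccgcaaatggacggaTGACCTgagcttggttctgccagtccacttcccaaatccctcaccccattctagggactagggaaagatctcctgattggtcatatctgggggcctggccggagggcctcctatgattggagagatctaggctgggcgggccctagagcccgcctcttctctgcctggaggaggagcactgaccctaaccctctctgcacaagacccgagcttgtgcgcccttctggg
The motif began 44 bases after the start site in *Slc1a2* and 57, 85 and 178 bases before it in *Glul*, *Gfap* and *Aldh1l1*. Of the 4 genes only *Slc1a2* was without overlap between the genotypes, and *Gja1*, *Gjb6* and *S100b*, which were also without overlap, had no match in this window. TATAAA was found in 1 of the 8 promoters, that of *Slc1a3*, and in 13.6% of all promoters. AACAAT, the core motif of SOX factors, was found in 0 of the 8 and in 10.7% of all promoters. No match overlapped another. A match of letters is a description of the sequence and not evidence of binding.

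The connexins *Gja1* and *Gjb6* encode Cx43 and Cx30, the pair of gap junction proteins that couple astrocytes. *Gja1* (chromosome 10, 56377330 to 56402513) had 248, 273 and 256 CPM in WT mice 1, 2 and 3 and 219, 200.2 and 225 CPM in Ube3am-/p+ mice 1, 2 and 3. All 3 Ube3am-/p+ mice lay below the WT range, with a log2 fold change of -0.25 (standard error 0.08, 95% interval from -0.43 to -0.08, adjusted p = 0.0877, edgeR). *Gjb6* (chromosome 14, 57123303 to 57133611) had 43.3, 50.5 and 58.4 CPM in WT mice and 39.9, 42.2 and 37.7 CPM in Ube3am-/p+ mice. The genotypes did not overlap, with WT mouse 1 just above Ube3am-/p+ mouse 2. The log2 fold change was -0.32 (standard error 0.11, 95% interval from -0.56 to -0.08, adjusted p = 0.102, edgeR). After the correction for GC content and length the connexins parted, with a log2 fold change of -0.05 for *Gja1* (adjusted p = 0.795, edgeR) and of -0.35 for *Gjb6* (adjusted p = 0.0921, edgeR).

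*Aqp4* encodes the water channel that is concentrated in the astrocyte endfeet around vessels, and lies on chromosome 18 from 15389496 to 15410982. It had 154, 178 and 161 CPM in WT mice and 148, 122 and 132 CPM in Ube3am-/p+ mice. The genotypes did not overlap, although the mice numbered 1 lay close to each other. The log2 fold change was -0.28 (standard error 0.09, 95% interval from -0.48 to -0.08, adjusted p = 0.0897, edgeR), and -0.04 after the correction (adjusted p = 0.864, edgeR). *S100b* encodes a calcium-binding protein of astrocytes that some oligodendrocytes also make, and lies on chromosome 10 from 76253853 to 76261159. It had 86.9, 90.9 and 92.4 CPM in WT mice and 75.9, 75.04 and 76.4 CPM in Ube3am-/p+ mice. All 3 Ube3am-/p+ mice lay below the WT mice and close to each other. The log2 fold change was -0.23 (standard error 0.09, 95% interval from -0.41 to -0.05, adjusted p = 0.115, edgeR), and -0.26 after the correction (adjusted p = 0.0863, edgeR). For *Slc1a2*, *Gja1*, *Gjb6*, *Aqp4* and *S100b* exact permutation of the mice gave p = 0.1 (two-sided), the smallest that 3 mice against 3 allow. Any gene without overlap between the genotypes gets this value, so it adds nothing to the lack of overlap.

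The remaining 3 genes had no lower mean in Ube3am-/p+ mice. *Gfap* (chromosome 11, 102887336 to 102900912) had 398, 405 and 428 CPM in WT mice and 434, 428 and 447 CPM in Ube3am-/p+ mice. WT mouse 3 and Ube3am-/p+ mouse 2 were at the same level, and the log2 fold change was 0.11 (standard error 0.08, 95% interval from -0.06 to 0.27, adjusted p = 0.419, edgeR). When the levels were scaled by TMM, a scaling for library composition, the *Gfap* values no longer overlapped and lay higher in the Ube3am-/p+ mice. With GC content and length corrected for, the sign turned, to -0.04 (adjusted p = 0.851, edgeR). *Aldh1l1* encodes a folate-metabolising enzyme used as a marker of astrocytes at large, and lies on chromosome 6 from 90486427 to 90600203. It had 49.6, 46.5 and 47.3 CPM in WT mice and 43.4, 52.9 and 48.1 CPM in Ube3am-/p+ mice, so that the latter enclosed the WT range. The log2 fold change was 0.03 (standard error 0.10, 95% interval from -0.19 to 0.25, adjusted p = 0.881, edgeR), and -0.07 with the correction (adjusted p = 0.755, edgeR). An antisense gene, *Gm15756*, covers 499 bp of its exons (11.05%) and was not analysed here. *Sox9* encodes a transcription factor of gliogenesis that nuclei of adult astrocytes retain, and lies on chromosome 11 from 112782224 to 112787760. It had 41.3, 38.0 and 45.7 CPM in WT mice and 44.98, 42.3 and 46.6 CPM in Ube3am-/p+ mice, which overlapped. The log2 fold change was 0.12 (standard error 0.10, 95% interval from -0.10 to 0.34, adjusted p = 0.504, edgeR), and 0.14 with the correction (adjusted p = 0.513, edgeR).

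**Figure D2:**
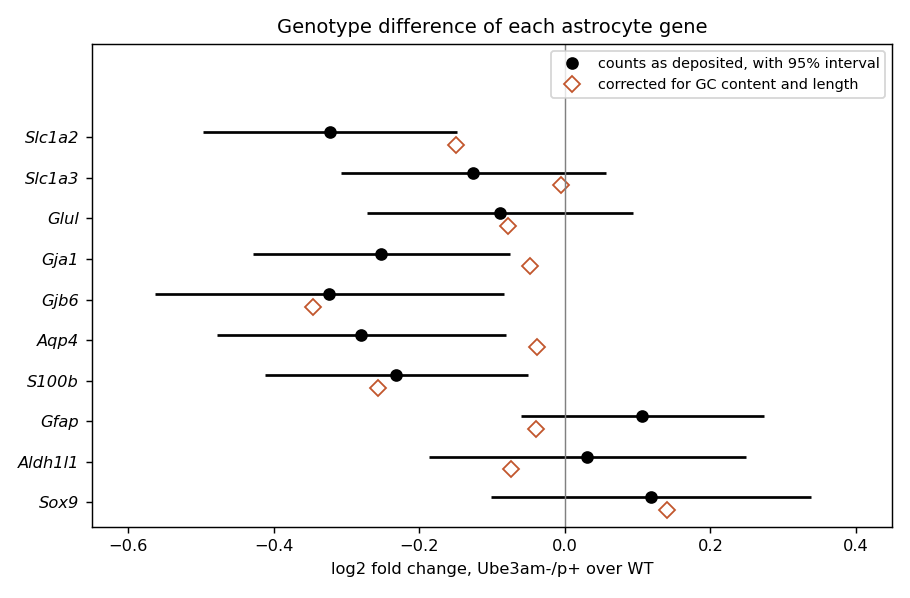
Log2 fold change of each astrocyte gene, Ube3am-/p+ over WT (horizontal axis), from the counts as deposited with its 95% interval (filled circles and lines) and with GC content and transcript length corrected for (open diamonds). The interval lies below 0 for *Slc1a2*, *Gja1*, *Gjb6*, *Aqp4* and *S100b*, and the corrected values of *Gfap* and *Aldh1l1* lie on the other side of 0.

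Ratios of counts within a library do not depend on how libraries are scaled. The 6 ratios were chosen after the values of the genes had been seen. The counts of *Slc1a2* were 5.13, 5.001 and 4.9998 times those of *Slc1a3* in WT mice 1, 2 and 3 and 4.43, 4.45 and 4.31 times in Ube3am-/p+ mice 1, 2 and 3. The means were 5.04 ± 0.0744 (SD, n = 3) and 4.40 ± 0.0767 (SD, n = 3), a gap larger than the spread among mice of either genotype. The GC content of the longest transcript is 45.3% in *Slc1a2* and 45.7% in *Slc1a3*, but its length differs, with 11595 bp and 4435 bp. With GC content and length corrected for, the log2 fold changes were -0.15 for *Slc1a2* and -0.005 for *Slc1a3* (adjusted p = 0.302 and 0.981, edgeR). The *Aqp4* to *Gfap* ratio was 0.387, 0.441 and 0.377 in WT mice and 0.340, 0.286 and 0.296 in Ube3am-/p+ mice, and these transcripts differ in GC content (41.4% and 55.5%). The ratio of *S100b* to *Sox9* was 2.02 to 2.39 in WT mice and 1.64 to 1.77 in Ube3am-/p+ mice. For these 3 ratios the exact permutation test gave a two-sided p of 0.1 (0.2 with Benjamini-Hochberg adjustment over the 6 ratios), with lower ratios in 3 of 3 Ube3am-/p+ mice. Any ratio without overlap gives this p, and the adjustment does not cover the choice of ratios after the values had been seen. The *Gja1* to *Gjb6* ratio overlapped, with 4.39 to 5.72 in WT mice and 4.74 to 5.97 in Ube3am-/p+ mice (exact permutation test, p = 0.6). The ratios of *Slc1a2* to *Glul* (p = 0.2) and of *Gfap* to *Aldh1l1* (p = 0.4) overlapped too in the exact permutation test.

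**Figure D3:**
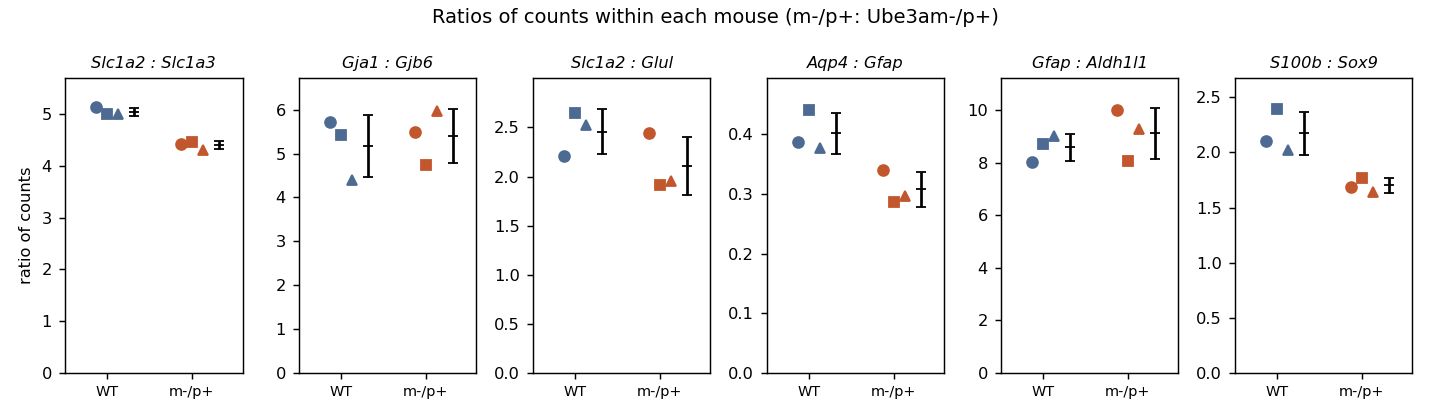
Ratios of the counts of pairs of astrocyte genes within each mouse (vertical axes, from 0), with 1 point per mouse and the mean ± SD beside the points. The *Slc1a2* to *Slc1a3* ratio lies between 4.9998 and 5.13 in the WT mice and between 4.31 and 4.45 in the Ube3am-/p+ mice.

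The position of the astrocyte genes on the scale of GC content was examined because the libraries differed along it. Among all tested genes the median log2 fold change was higher at higher GC content, from -0.20 at 40% to 45% GC (2709 genes), through -0.07 at 45% to 50% (3689 genes) and 0.07 at 50% to 55% (3697 genes), to 0.19 at 55% to 60% (2637 genes). *Aqp4* and *Gja1*, with 41.4% and 42.2% GC, lay 0.08 and 0.06 below the median of their bin. *Gfap* and *Aldh1l1*, with 55.5% and 54.4% GC, lay 0.08 and 0.04 below the medians of theirs. *Slc1a2* (45.3%), *S100b* (48.3%) and *Gjb6* (49.6%) lay 0.26, 0.16 and 0.26 below the median of the bin from 45% to 50%, while *Sox9* (49.3%) lay 0.19 above it. *Slc1a3* (45.7%) and *Glul* (49.2%), in the same bin, lay 0.06 and 0.02 below its median. Over the 10 astrocyte genes the corrected median was -0.06, and edgeR called 0 of the 10 and 0.542% of all genes in the corrected fit. *Slc1a2*, *S100b* and *Gjb6* had an unadjusted p below 0.05 with a lower mean there, as did 6.61% of all genes in that fit. The mice numbered 1 had nearly the same relation to GC content. Between these mice alone, the log2 difference of TMM-scaled CPM was -0.14 for *Slc1a2*, -0.06 for *Aqp4*, -0.17 for *Gja1*, -0.12 for *Gjb6* and -0.19 for *S100b*, with no replicate. Lower values there were a given for these 5 genes, whose genotypes did not overlap. Of the other 5 genes in that pair, *Glul* was at -0.29, *Aldh1l1* at -0.19, *Slc1a3* at 0.07 and *Gfap* and *Sox9* at 0.13 each. Between the means of mice 2 and 3 the difference was -0.41 for *Slc1a2*, -0.39 for *Aqp4*, -0.29 for *Gja1*, -0.42 for *Gjb6* and -0.25 for *S100b*. Genotype and the relation to GC content cannot be told apart in mice 2 and 3.

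**Figure D4:**
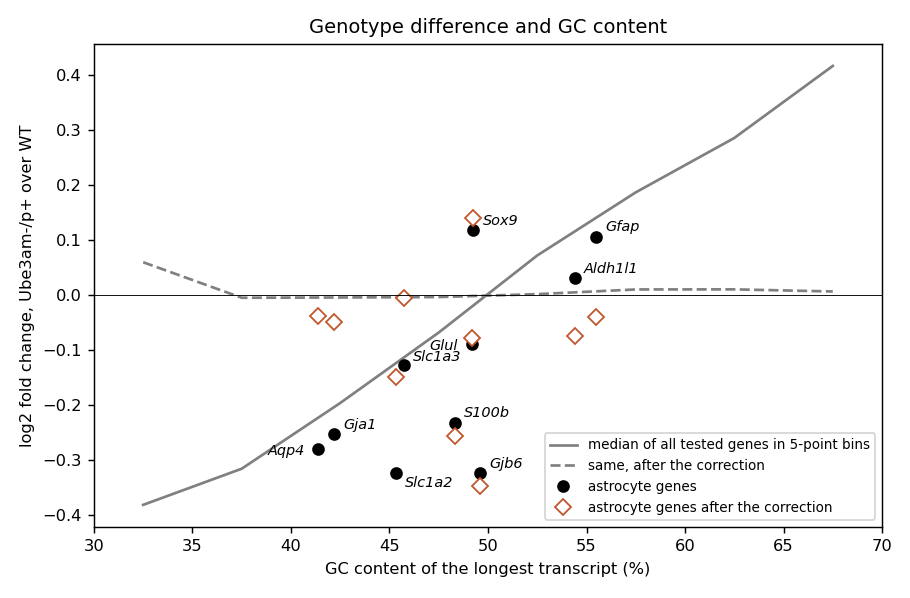
Log2 fold change, Ube3am-/p+ over WT (vertical axis), against the GC content of the longest transcript in percent (horizontal axis), for the astrocyte genes before (filled circles) and after (open diamonds) the correction. The grey line, the median of all tested genes in bins, climbs with GC content, and *Aqp4* and *Gja1* lie near it while *Slc1a2*, *Gjb6* and *S100b* lie below it.

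Genes that work with the astrocyte genes were taken from further lists. Over all tested genes edgeR called 0 without WT mouse 2, WT mouse 3 or Ube3am-/p+ mouse 2, 2 without Ube3am-/p+ mouse 3, 2582 without WT mouse 1 and 1816 without Ube3am-/p+ mouse 1. In the glutamate cycle beside the set (other transporters of glutamate and glutamine, glutaminase and related enzymes), 0 of 12 genes were called by edgeR, with 2 higher and 1 lower at an unadjusted p below 0.05, and 1 was called by DESeq2. The largest difference there was that of *Slc17a7*, the vesicular glutamate transporter of excitatory neurons, with 1338 ± 133 CPM (SD, n = 3) in WT and 1686 ± 191 CPM (SD, n = 3) in Ube3am-/p+ mice (adjusted p = 0.0638, edgeR). In the list of endfoot, potassium and ion handling genes, 7 of 12 had a lower and 5 a higher log2 level in Ube3am-/p+ mice. Of the lower genes edgeR called 2, while 2.01% of all tested genes were called in either direction. *Slc4a4*, an astrocyte bicarbonate cotransporter, fell by 0.42 on the log2 scale (227, 246 and 257 CPM in WT mice, 204, 181 and 153 CPM in Ube3am-/p+ mice, adjusted p = 0.0408, edgeR). *Dmd*, the gene of dystrophin, whose short form anchors the AQP4 complex at endfeet, fell by 0.41 (70.1, 70.7 and 82.1 CPM against 57.3, 55.2 and 52.7 CPM, adjusted p = 0.0406, edgeR). After the correction for GC content and length *Slc4a4* remained called, at -0.28 (adjusted p = 0.0434, edgeR), and *Dmd* did not, at -0.14 (adjusted p = 0.467, edgeR). Among the intermediate filaments beside *Gfap*, 1 of 8 was called. *Synm*, the gene of synemin, a partner of GFAP and vimentin filaments, rose by 0.43 (56.8, 48.6 and 51.1 CPM against 67.6, 73.8 and 67.6 CPM, adjusted p = 0.0387, edgeR) and remained called after the correction, at 0.44 (adjusted p = 0.0216, edgeR).

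Of 40 further astrocyte genes, edgeR called 3 as lower and 0 as higher in Ube3am-/p+ mice. These were *Mt1* (-0.54) and *Mt2* (-0.41), which encode metallothioneins, and *Fam107a* (-0.42), which encodes an actin-associated protein, each with an adjusted p of 0.0362 (edgeR). *Fam107a* had 360, 416 and 389.8 CPM in WT mice 1, 2 and 3 and 289, 293 and 279 CPM in Ube3am-/p+ mice 1, 2 and 3. *Mt2* had 135, 147 and 150.3 CPM in WT mice and 107, 103 and 112 CPM in Ube3am-/p+ mice. After the correction *Fam107a* was at -0.41 (adjusted p = 0.0127, edgeR) and *Mt2* at -0.70 (adjusted p = 0.00431, edgeR), whereas *Mt1* was no longer called (-0.71, adjusted p = 0.155, edgeR). Over the 40 genes the median log2 fold change was -0.03, with 22 lower and 18 higher. At an unadjusted p below 0.05 in edgeR, 12 of the 40 were lower and 3 higher. Lower at that p were 12.4% of all tested genes. DESeq2 called 5 of the 40, beside 4.83% of all genes in its fit. With GC content and length corrected for, the median of the 40 was -0.12, against -0.06 over the 10 astrocyte genes. The summed level of the 40 genes overlapped, with 8136 to 8161 CPM in WT mice and 7708 to 8396 CPM in Ube3am-/p+ mice. That of the 10 astrocyte genes was 6061 to 6509 CPM in WT mice and 5360.5 to 5530.2 CPM in Ube3am-/p+ mice. Other connexins (0 of 7 tested genes called by edgeR, 2 at an unadjusted p below 0.05, 0 by DESeq2) and factors of gliogenesis (0 of 15, 6 and 2) gave no calls in edgeR. At the unadjusted p, 2 connexins were lower and 0 higher, and 4 factors were lower and 2 higher. Of the 14445 tested genes, 1795 were lower and 1765 higher at that p. In those lists the largest differences were *Gjc1*, a connexin, at -0.62 (adjusted p = 0.155, edgeR) and *Nfia*, a factor that promotes astrocyte fate, at -0.41 (adjusted p = 0.0605, edgeR). The factors had 7 lower and 8 higher means. *Sox2*, named after its values were seen, was at 0.40 (adjusted p = 0.0649, edgeR). After the correction *Nfia* was at -0.17 (adjusted p = 0.413, edgeR) and *Sox2* at 0.35 (adjusted p = 0.0881, edgeR).

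Genes of reactive astrocytes were listed in 3 classes. Of 7 tested genes shared by reactive states, 0 were called by edgeR or DESeq2, with 2 at an unadjusted p below 0.05 in edgeR, both lower. Of 12 genes of the neuroinflammatory class 0 were called by either tool and 0 had an unadjusted p below 0.05 in edgeR. Of 8 tested genes of the ischaemic class 0 were called by either tool, with 1 lower at an unadjusted p below 0.05 in edgeR. In WT mice the 12 genes of the neuroinflammatory class summed to 133 to 146 CPM and the 12 listed genes of the ischaemic class to 69.6 to 79.8 CPM. Most of these genes had low counts, so the lack of calls does not show a lack of difference. The largest differences were *Osmr*, the oncostatin M receptor, at -0.53 (adjusted p = 0.144, edgeR), *Iigp1*, an interferon-inducible GTPase, at -0.65 (adjusted p = 0.263, edgeR), and *Sphk1*, sphingosine kinase, at 0.56 (adjusted p = 0.491, edgeR). Their counts were low, at 354, 130 and 79 over the 6 libraries, and the genotypes overlapped in each of them. *Serpina3n*, a protease inhibitor and marker of reactive astrocytes named after its values were seen, was at -0.33 (adjusted p = 0.0692, edgeR) and passed the call after the correction for GC content and length, at -0.41 (adjusted p = 0.0416, edgeR). *Lcn2*, a gene strongly induced in reactive astrocytes, had 18 counts in the 6 libraries and was not tested.

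Markers of other cell types moved in the same comparison, and their part in the differences of the astrocyte genes was not tested. Neuron markers summed to 11144 to 11479 CPM in WT mice and 10140 to 10823 CPM in Ube3am-/p+ mice, with a median log2 fold change of -0.17 over 10 genes. Oligodendrocyte markers summed to 8388 to 8514 CPM and 6984 to 7990 CPM (median -0.16 over 8 genes), and oligodendrocyte precursor markers to 229 to 230.1 CPM and 189.5 to 203 CPM (median -0.11 over 6 genes). Microglia markers summed to 398 to 437 CPM and 368 to 387 CPM (median -0.12 over 8 genes), and endothelial and mural markers to 416 to 443 CPM and 333 to 382 CPM (median -0.22 over 8 genes). All 5 sums were lower in each Ube3am-/p+ mouse than in any WT mouse, as was that of the astrocyte genes. With GC content and length corrected for, the median was -0.03 for neuron and -0.08 for oligodendrocyte markers. It was then -0.17 for precursor, -0.11 for microglia and -0.15 for endothelial and mural markers. Called by edgeR were *Pdgfra* (-0.43, adjusted p = 0.0466) and *Vcan* (-0.60, adjusted p = 0.0387) of the precursor list and *Rgs5* (-0.51, adjusted p = 0.0387), a pericyte gene. In the same lists *C1ql1*, a complement-related gene of precursors, was at 0.85 (adjusted p = 0.0518, edgeR, and 0.0241, DESeq2), and *Cldn5*, of endothelial tight junctions, was at 0.46 (adjusted p = 0.0751, edgeR). The genes *C1ql1*, *Cldn5*, *Rbfox3*, *C1qa* and *Mobp* are named after their values were seen. Neuron, oligodendrocyte and microglia lists had 0 calls by edgeR, with 5, 4 and 3 genes at an unadjusted p below 0.05 and 2, 2 and 1 called by DESeq2. Of these, *Rbfox3* of neurons (0.31) and *C1qa* of microglia (0.47) had higher means in Ube3am-/p+ mice. Most markers had lower means, with 8 of 10 neuron, 5 of 8 oligodendrocyte and 5 of 8 microglia genes. The largest differences in the 3 lists were *Gad2* of neurons at -0.37 (adjusted p = 0.0595, edgeR), *Ermn* of oligodendrocytes at -0.40 (0.0632) and *P2ry12* of microglia at -0.49 (0.059). After the correction they were at -0.19, -0.09 and -0.22, and 0 of these 3 were called. *Mobp*, a myelin gene, was called only after the correction for GC content and length (-0.32, adjusted p = 0.0466, edgeR). None of *Pdgfra*, *Vcan* and *Rgs5* was called after the correction for GC content and length.

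Ependymal markers, genes of the ciliated ventricular lining that also expresses *Sox9* and some *Gfap*, summed to 33.7 to 37.4 CPM in WT mice and 48.3 to 61.9 CPM in Ube3am-/p+ mice. All 6 had the higher mean in Ube3am-/p+ mice, and *Foxj1*, the master gene of motile cilia, rose by 1.01 (7.30, 7.26 and 8.36 CPM against 13.6, 18.2 and 13.6 CPM, adjusted p = 0.0361, edgeR). After the correction *Foxj1* was at 0.74 (adjusted p = 0.0521, edgeR). Choroid plexus markers varied within the genotypes, with sums of 607, 99.7 and 2185 CPM in WT mice 1, 2 and 3 and 2270.3, 1611 and 106 CPM in Ube3am-/p+ mice 1, 2 and 3 (0 of 6 called by edgeR or DESeq2, and 0 at an unadjusted p below 0.05 in edgeR). Meninges and fibroblast markers, which include cells that express *Gja1*, summed to 92.7 to 152 CPM in WT mice and 94.8 to 177 CPM in Ube3am-/p+ mice, and *Col1a1* rose by 0.73 (adjusted p = 0.0416, edgeR), a call that was lost after the correction (0.56, adjusted p = 0.082, edgeR). Markers of radial glia-like and proliferating cells summed to 139 to 147 CPM and 120.4 to 141 CPM, with 0 of 8 called by edgeR, 2 at an unadjusted p below 0.05 and 1 called by DESeq2.

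**Figure D5:**
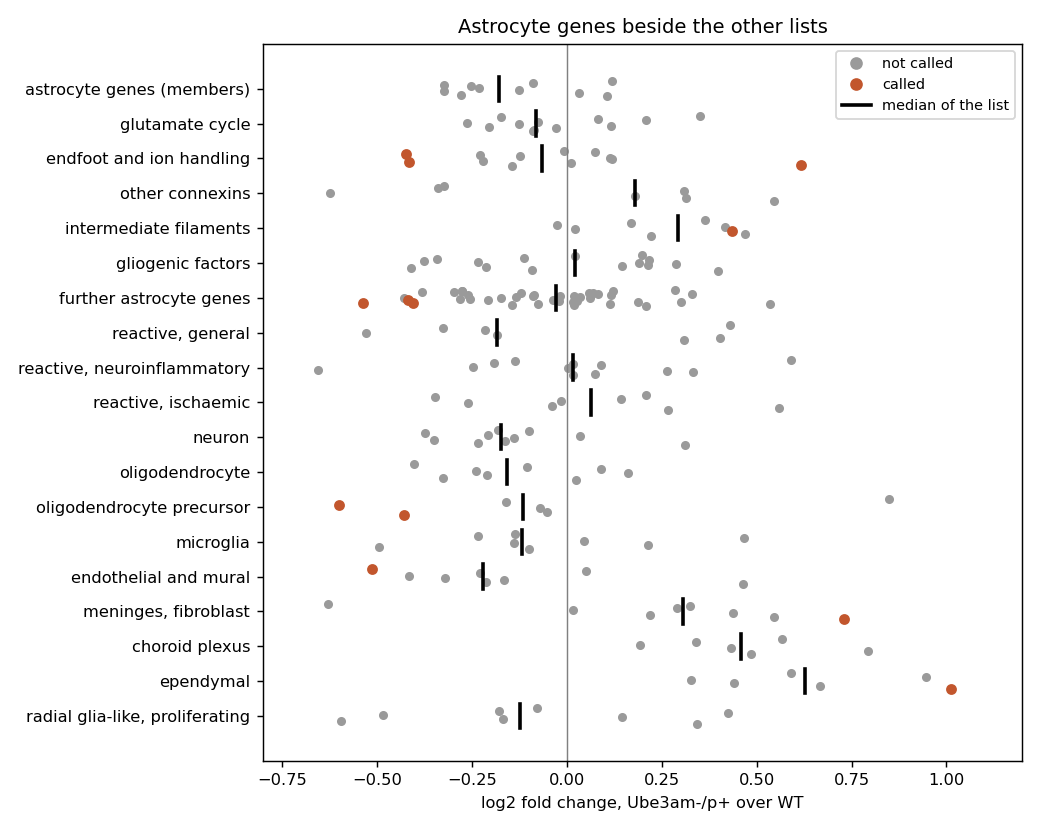
Log2 fold change, Ube3am-/p+ over WT (horizontal axis), of each tested gene of the astrocyte set and of the other lists, with 1 point per gene, called genes in orange and the median of each list as a black bar. The medians of the astrocyte genes and of the neuron, oligodendrocyte, precursor, microglia and endothelial lists lie below 0, and those of the meninges, choroid plexus and ependymal lists lie above 0.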

How the data were processed

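RNA of 6 hippocampi (3 WT and 3 Ube3am-/p+ mice) was sequenced, and the authors deposited counts, whole numbers of reads per gene symbol without normalization or pooling, in the layout of htseq-count. The submitters' processing notes name STAR 2.7.4a, HTSeq and mm10, and the annotation and strand setting are not given in the sources used here. Reads on genes were 39.0% to 41.8% of the reads listed. A further 54.1% to 55.0% lay on no gene, and these and the ambiguous and multiply aligned reads stayed out of library sizes and tests. Groups and replicate numbers came from the sample titles.

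CPM was computed on the total gene counts. Counts were analysed in R 4.3.3 with edgeR 4.0.16 (filterByExpr, TMM, robust quasi-likelihood F test, genotype as the only factor, two-sided, Benjamini-Hochberg over 14445 genes). Calls needed a fold change of more than 1.2 with an adjusted p under 0.05. The standard error is the log2 fold change divided by the square root of F. Ratios were compared by exact permutation of the mice (20 assignments). DESeq2 1.42.0 and the other alternatives are given in the closing section. The correction for GC content and length used natural splines (5 degrees of freedom each) on the longest GENCODE M21 transcript, for 14201 genes (98.3%), and all 10 astrocyte genes had a transcript there. Positions were taken from GENCODE M21 on GRCm38, which is mm10. The edgeR, DESeq2 and correction steps were tested on simulated data with known changes.

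The members and the other lists were chosen with earlier results of these data known. Named are the 10 members and *Ube3a*, and in each other list the called genes, at most 4 by adjusted p, or, where none was called, the tested gene with the largest difference. For the choroid plexus list and the list of radial glia-like and proliferating cells, which had no calls, that gene is not named. *Lcn2*, *Serpina3n*, *Sox2*, 5 genes of other cell types and the genes overlapping a member are named beyond this rule. Among the called genes, 1 that the rule would name is not reported here.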

Additional observations from a re-analysis of the deposited data

How the results depend on the processing

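The number of genes called among all genes depended strongly on the setting. It was 290 as reported, 932 with DESeq2, 1176 with no filter on low counts, 77 when GC content and length were corrected for, and 2832 at an unadjusted p with a fold change above 1.2. With 1 mouse left out it was 2582 without WT mouse 1, 1816 without Ube3am-/p+ mouse 1, 2 without Ube3am-/p+ mouse 3 and 0 without any of the others, where 1 genotype was left with 2 mice. It was 4138 in the fit of 2 mice against 2 without the mice numbered 1, which was added after seeing the data. With the replicate number as a block it was 0 (2422 at an unadjusted p below 0.05), and 1 with block and correction together. The numbers were not taken as pairs, since the labels name no pairs. The correlations of same-numbered mice in their deviations from the genotype means were -0.304, -0.177 and -0.317. These correlations also carry the differing relation to GC content, so they cannot decide whether same-numbered mice were linked. In a chi-square comparison of the gene counts of 2 libraries, the mice numbered 1 differed least of all pairs (3.78 per degree of freedom).

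The number of astrocyte genes called was 0 as reported. It was 1, *Slc1a2*, with DESeq2, with library size only, with no filter and with at least 10 counts in every library, and 3 (*Slc1a2*, *Aqp4*, *Gjb6*) at an unadjusted p with a fold change above 1.2. With 1 mouse left out the number of astrocyte genes called ran from 0 to 4. The 4 were *Slc1a2*, *Aqp4*, *Gja1* and *Gjb6* without WT mouse 1 (17.6% of all genes called). It was 2 without Ube3am-/p+ mouse 1 (*Slc1a2* and *Aqp4*, with 12.5% of all genes called). It was 4 without both mice numbered 1, where 4138 of 14631 genes were called, and 0 with the replicate block, where 0 of 14445 were. The adjusted p of *Slc1a2* ran from 8.62e-05 to 0.507 over 16 alternatives and was below 0.05 in 7 of them. Of the 10 log2 fold changes, 8 kept their direction under all 16. That of *Gfap* turned to -0.039 with the correction and to -0.038 with correction and block. That of *Aldh1l1* turned to -0.075 with the correction and to -0.078 with correction and block, and with 1 mouse left out it ran from -0.033 (without Ube3am-/p+ mouse 2) to 0.11. The cause was not tested.

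Over the 10 genes the median log2 fold change, -0.18, moved to -0.061 with the correction, to -0.063 with correction and block and to -0.25 without both mice numbered 1, and lay between -0.22 and -0.16 with 1 mouse left out. The number of members without overlap in either direction was 5 (24.98% of all tested genes), 6 with TMM-scaled CPM (24.8%) and 5 to 7 with 1 mouse left out (30.2% to 50.1%), where 2 mice stood against 3. The log2 fold change of *Ube3a* was -0.57 with the block (adjusted p = 0.216, edgeR), -0.19 with the correction and -0.18 with both, where the call was lost too (adjusted p = 0.255 and 0.393, edgeR), and lay between -0.73 and -0.48 with 1 mouse left out (adjusted p from 0.000736 to 0.251, edgeR). The other scalings moved the median of all genes by at most 0.02. With 330 or more counts of each member in each library, depth set no limit on their detection.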
